A study of Mus musculus with 6 samples.

Results

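The genes described here code for fatty acid oxidation and acyl-CoA handling: the carnitine shuttle, the enzymes of mitochondrial and peroxisomal beta-oxidation, the electron transfer flavoprotein, acyl-CoA thioesterases and a few PPAR-responsive regulators. They were taken by symbol from a list of 31 genes, and 30 of them had a probe set of their own among the 18193 genes named on the arrays. Ucp2 was not analysed here. Of the 30, 17 code for mitochondrial oxidation proteins, 5 for peroxisomal enzymes, 3 for proteins located in more than 1 compartment (Crat, Ech1 and Eci2) and 5 for thioesterases and regulators.

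The comparison is between 3 cultures of macrophages from E-FABP knockout mice and 3 of macrophages from wild-type mice, all of strain C57BL/6 and 6 to 8 weeks old. Fabp5 encodes E-FABP, a carrier that moves fatty acids through the cytosol. Bone marrow cells had been grown for 7 days with the growth factor GM-CSF at 20 ng/ml, which yields macrophages together with cells that have dendritic cell features, and all cultures had then shared medium for 18 h with E0771 mouse breast cancer cells held in an insert. Both genotypes were thus exposed to tumour cells, and cultures kept without them were not analysed here. The sample titles name biological replicates, but nothing ties a sample to 1 mouse, so p-values measure the spread between these 3 and 3 samples. The deleted part of Fabp5 and the cells in which it was deleted are not given in the sources used here.

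Fatty acids are activated to acyl-CoA before they are oxidised. Long-chain acyl groups enter mitochondria as carnitine esters and are shortened in a repeated cycle of dehydrogenation, hydration, a second dehydrogenation and thiolytic cleavage, while peroxisomes shorten very long and branched chains with a separate set of enzymes whose first step makes hydrogen peroxide. Several of these genes are targets of the PPAR nuclear receptors, which bind fatty acids, and in macrophages oxidation of fatty acids is often discussed in relation to alternative activation.

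The arrays resembled each other closely. Their median log2 intensity lay between 5.60 and 5.64, and Pearson's r across probe sets ran from 0.9965 to 0.9977 for arrays of 1 genotype and from 0.9914 to 0.9961 for arrays of different genotypes. Fabp5 read 8.13, 8.31 and 8.39 (log2 intensity) in knockout replicates 1 to 3 and 14.47, 14.41 and 14.45 in wild type, so each array matched its stated genotype. The 12 macrophage markers were all above 5.63, the median of all values. Of them 0 rose, 2 fell and 10 did not pass, whereas 2.85% of all genes rose and 2.05% fell. In 9 markers the mean was lower in knockout. The mean of the list was 11.97 to 12.14 in knockout and 12.21 to 12.24 in wild type. Lyz2, Csf1r and Cd68 differed by 0.01, -0.02 and -0.11 between genotypes, whereas Fcgr1, which codes for a receptor for antibodies (-1.13, SE 0.19), and Mertk, which codes for a receptor for dying cells (-0.46, SE 0.08), fell with limma adjusted p of 0.0227 and 0.0234. With 3 arrays per genotype, the number of arrays limits the precision of every value, and values are relative to the rest of each array. RNA came from whole cultures, so fewer cells of a type and less RNA per cell cannot be told apart.

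Of the 30 genes, 4 rose in knockout, 0 fell and 26 did not pass the threshold, which was an adjusted p under 0.05 in limma's moderated test over all 45037 probe sets. The 4 were Hadh, Acadm, Ehhadh and Acot1, each higher by 1.31-fold to 1.47-fold. Of all genes, 2.85% rose and 2.05% fell. In 15 of the 30 genes every knockout array lay above every wild-type array, and in 1, Acadl, every knockout array lay below, against 20.7% and 11.2% of all genes. The median difference of the 30 genes was 0.12 on the log2 scale (range -0.29 to 0.55), against 0.01 for all genes, and 24 had a higher mean in knockout, as did 53.1% of all genes. At an unadjusted p under 0.05, 13 were higher and 2 lower, against 15.2% and 8.15% of all genes. With 1 array left out, calls became fewer across all genes as well as among these 30. Leaving out knockout replicate 1 gave 0 of the 30, with 0.0495% of all genes higher, and leaving out wild-type replicate 2 gave 0, with 0.115%. Leaving out wild-type replicate 1 gave 1 (Acot1), with 0.423% of all genes higher, and leaving out knockout replicate 2 gave 2 (Acot1 and Hadh), with 0.379%. The third array of either genotype could be left out with all 4 still called, beside 2.03% of all genes (knockout) and 1.61% (wild type).

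**Figure D1:**
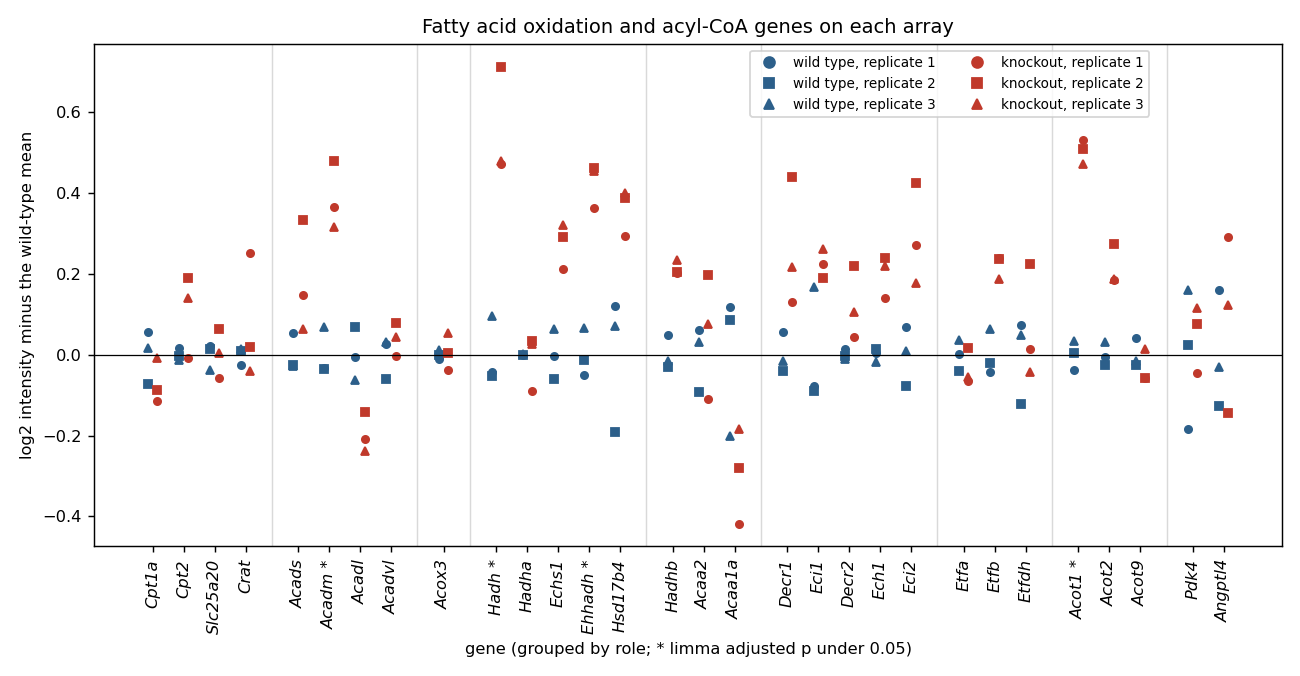
Log2 intensity of each gene on each of the 6 arrays, shown as the distance from the wild-type mean, with genes grouped by role along the x axis, wild-type arrays in blue, knockout arrays in red and the shape giving the replicate number. The knockout points of Hadh, Acadm, Ehhadh and Acot1 lie clear of the wild-type points, those of Acadl lie below them, and those of the 4 carnitine shuttle genes overlap them.

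Hadh codes for the mitochondrial enzyme that oxidises short- and medium-chain hydroxyacyl-CoA, the second dehydrogenation of the cycle. It read 10.34, 10.58 and 10.34 in knockout and 9.82, 9.81 and 9.96 in wild type. All knockout arrays were higher, knockout replicate 2 most of all, and the genotypes did not overlap. The mean rose from 9.86 ± 0.08 to 10.42 ± 0.14 (SD, n = 3 each), a difference of 0.55 (SE 0.09, 1.47-fold, limma adjusted p = 0.0205). Its other probe sets lay 0.46 (limma adjusted p = 0.0284) and 0.38 (limma adjusted p = 0.0274) above wild type, the last of them a dim one with a mean of 4.08. All 3 probe sets of Hadh thus passed the threshold in the same direction.

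Acadm codes for the medium-chain acyl-CoA dehydrogenase, which starts each turn of the cycle on chains of middle length. It read 10.69, 10.80 and 10.64 in knockout and 10.29, 10.29 and 10.39 in wild type, again without overlap. The difference was 0.39 (SE 0.07, 1.31-fold, limma adjusted p = 0.0273). Acadm has a single probe set of its own, so no second measurement was available.

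Ehhadh codes for the peroxisomal bifunctional enzyme, a hydratase and hydroxyacyl dehydrogenase in 1 protein and a classical PPAR alpha target in liver. It read 5.62, 5.72 and 5.71 in knockout and 5.21, 5.24 and 5.32 in wild type. The difference was 0.43 (SE 0.07, 1.34-fold, limma adjusted p = 0.0207). Its signal was dim, with a mean of 5.47 that fell short of the array median, and how the authors' background correction bears on such a value was not tested.

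Acot1 codes for a cytosolic thioesterase that splits long-chain acyl-CoA into free fatty acid and coenzyme A. It read 6.48, 6.46 and 6.42 in knockout and 5.91, 5.96 and 5.99 in wild type, the tightest separation among the 30 genes relative to its SE. The difference was 0.50 (SE 0.06, 1.42-fold, limma adjusted p = 0.0158). Its neighbour on chromosome 12, Acot2, codes for the closely related mitochondrial thioesterase and lay 0.22 above wild type (SE 0.06, limma adjusted p = 0.101), with knockout values of 8.54, 8.62 and 8.54 against 8.34, 8.33 and 8.38. A second Acot2 probe set lay 0.34 above wild type (limma adjusted p = 0.123), and a probe set that the platform assigns to both genes lay 0.14 above (limma adjusted p = 0.250). Whether probes for one of these thioesterases also bind the transcript of the other was not tested.

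The 4 genes lie on chromosomes 3 (Hadh and Acadm), 16 (Ehhadh) and 12 (Acot1). Fabp5, the deleted gene, is on chromosome 3 as well, and so is Etfdh, which did not pass (0.07, SE 0.09). The stretches upstream of the 4 genes, which were chosen by their calls, are printed below. No motif searched for was found in all 4, and the part of upstream sequence in their differences was not tested. Each is the 250 bases before the gene's start in RefSeq's GRCm38.p6, 5′ to 3′ on the gene's strand, at chr3:131272102-131272351 (minus), chr3:153944644-153944893 (minus), chr16:21787835-21788084 (minus) and chr12:84009252-84009501 (plus), in the order Hadh, Acadm, Ehhadh, Acot1. Capitals mark the GC box GGGCGG and the nuclear receptor half-site AGGTCA on either strand.
Hadh: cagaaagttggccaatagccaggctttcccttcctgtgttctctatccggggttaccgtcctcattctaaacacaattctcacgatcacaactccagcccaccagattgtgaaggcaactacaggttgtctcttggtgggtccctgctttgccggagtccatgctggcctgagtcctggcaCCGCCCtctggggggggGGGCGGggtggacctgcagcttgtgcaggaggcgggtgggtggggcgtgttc
Acadm: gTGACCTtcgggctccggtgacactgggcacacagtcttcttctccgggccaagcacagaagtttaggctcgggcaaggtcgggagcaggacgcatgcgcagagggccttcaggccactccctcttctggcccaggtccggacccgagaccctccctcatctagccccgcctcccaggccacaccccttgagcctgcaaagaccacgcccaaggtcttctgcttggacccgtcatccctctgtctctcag
Ehhadh: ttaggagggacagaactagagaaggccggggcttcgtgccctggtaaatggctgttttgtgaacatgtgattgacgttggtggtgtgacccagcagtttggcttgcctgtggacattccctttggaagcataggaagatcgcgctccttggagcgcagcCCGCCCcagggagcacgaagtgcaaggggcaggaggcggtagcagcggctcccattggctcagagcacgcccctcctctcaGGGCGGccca
Acot1: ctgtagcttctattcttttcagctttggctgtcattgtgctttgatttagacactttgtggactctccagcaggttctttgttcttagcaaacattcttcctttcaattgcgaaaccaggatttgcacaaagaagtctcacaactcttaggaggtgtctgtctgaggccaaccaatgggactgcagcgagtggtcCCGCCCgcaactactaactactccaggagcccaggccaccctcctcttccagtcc

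Among the 25 measured genes with such a window, 18 held GGGCGG on either strand (72.0%), against 48.3% of the 18109 windows of genes on the arrays and 32.7% of all 32851 windows. Hadh, Ehhadh and Acot1 were among the 18, and Acadm was not. AGGTCA was found in 4 of 25 windows (16.0%), those of Acadm, Echs1, Acadvl and Cpt1a, against 12.5% of the windows of genes on the arrays. The direct repeat of AGGTCA with 1 base between the copies, which contains that half-site and is the consensus bound by PPAR with its partner RXR, was found in 0 of 25 windows and in 0.0387% of the windows of genes on the arrays. CCAAT was found in 12 of 25 (34.7% of the windows of genes on the arrays) and TATAAA in 1 of 25, that of Acot9 (8.81%). These are matches of letters within 250 bases, not sites shown to be bound.

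The carnitine shuttle brings long-chain acyl groups into mitochondria, and none of its 4 measured genes passed. Cpt1a, the rate-controlling transferase of the outer membrane and a PPAR target, read 10.42, 10.45 and 10.53 in knockout and 10.59, 10.46 and 10.55 in wild type, a difference of -0.07 (95% confidence interval -0.23 to 0.08). The carrier Slc25a20 differed by 0.00 (-0.14 to 0.15), the inner transferase Cpt2 by 0.11 (-0.06 to 0.27) and Crat, which makes carnitine esters of short chains, by 0.08 (-0.11 to 0.27). In all 4 genes the genotypes overlapped in the probe set reported. The other probe sets of Cpt1a lay -0.02 and -0.13 from wild type, those of Crat 0.15 and -0.09, and that of Slc25a20 -0.05. A dim one of Cpt2, with a mean of 4.11, lay 0.19 above wild type. In the Crat probe set at 0.15 and in the dim one of Cpt2 every knockout array was higher. None of these other probe sets passed the threshold.

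Of the 4 acyl-CoA dehydrogenase genes 1 rose, 0 fell and 3 did not pass, whereas 2.85% of all genes rose and 2.05% fell. Beside the rise of Acadm, the short-chain enzyme Acads read 7.96, 8.14 and 7.87 in knockout and 7.86, 7.78 and 7.78 in wild type, a difference of 0.18 (SE 0.08, limma adjusted p = 0.260) with no overlap, although knockout replicate 3 lay barely above wild-type replicate 1. The very-long-chain enzyme Acadvl differed by 0.04 (SE 0.07). Acadl, the long-chain enzyme, read 11.26, 11.32 and 11.23 in knockout and 11.46, 11.53 and 11.40 in wild type. Every knockout array was lower, and the difference was -0.20 (SE 0.07, limma adjusted p = 0.146; 0.0358 with trend and robust settings). Its other probe set read close to the floor of the array, with a mean of 3.76, and differed by 0.01. The peroxisomal counterpart of this step measured here, the branched-chain oxidase Acox3, differed by 0.01 (-0.14 to 0.15).

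The next step of the cycle, hydration and the second dehydrogenation, had the highest median difference of the roles compared here. Of 5 genes 2 rose (Hadh and Ehhadh), 0 fell and 3 did not pass, whereas 2.85% of all genes rose and 2.05% fell. In 4 of 5 the knockout arrays lay above all wild-type arrays, against 20.7% of all genes. Echs1, the mitochondrial short-chain hydratase, read 9.37, 9.45 and 9.47 in knockout and 9.15, 9.10 and 9.22 in wild type, a difference of 0.27 (SE 0.07, limma adjusted p = 0.0609). Hsd17b4, the other peroxisomal bifunctional enzyme, which serves very long and branched chains, read 9.83, 9.93 and 9.94 in knockout and 9.66, 9.35 and 9.61 in wild type, a difference of 0.36 (SE 0.09, limma adjusted p = 0.0634), and its second probe set lay 0.30 above wild type. Hadha, the subunit of the mitochondrial trifunctional protein that carries the long-chain hydratase and dehydrogenase, differed by -0.01 (-0.16 to 0.14). The median of the 5 was 0.36.

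Hadhb codes for the thiolase subunit of the same trifunctional protein. It read 10.68, 10.68 and 10.71 in knockout and 10.53, 10.45 and 10.46 in wild type, a difference of 0.21 (SE 0.06, limma adjusted p = 0.0965), while the wild-type and knockout arrays of Hadha overlapped. Its second bright probe set lay 0.19 above wild type, and a dimmer one, with a mean of 6.27, lay -0.03 from it. The difference between the responses of the partners was not tested. Hadha and Hadhb are next to each other on chromosome 5 and are read in opposite directions, so that their upstream windows overlap in 228 bases at chr5:30155003-30155230. That stretch, on the plus strand and with the GC box in capitals, shows how much upstream sequence the pair shares.
Hadha and Hadhb: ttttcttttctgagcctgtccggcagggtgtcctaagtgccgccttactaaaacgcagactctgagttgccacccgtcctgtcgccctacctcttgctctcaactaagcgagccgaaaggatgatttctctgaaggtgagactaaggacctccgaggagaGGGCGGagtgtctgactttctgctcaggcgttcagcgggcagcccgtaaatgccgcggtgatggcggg

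The remaining thiolases gave no call. Acaa2, the mitochondrial one, differed by 0.05 (SE 0.09), with 9.04, 9.34 and 9.22 in knockout and 9.21, 9.06 and 9.18 in wild type. Acaa1a, the peroxisomal one, had the lowest difference of the 30 genes. It read 8.09, 8.22 and 8.32 in knockout and 8.62, 8.59 and 8.30 in wild type, a difference of -0.29 (SE 0.10, limma adjusted p = 0.144) in which wild-type replicate 3 fell among the knockout values. Its second probe set differed by -0.10, and a pair of probe sets that the platform assigns to both Acaa1a and Acaa1b differed by -0.19 and -0.20, none of them past the threshold.

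Auxiliary enzymes prepare unsaturated chains for the cycle. In all 5 of their genes every knockout array lay above every wild-type array, against 20.7% of all genes. However, 0 of 5 passed limma's threshold, with 4 higher at an unadjusted p under 0.05, against 15.2% of all genes. The mitochondrial dienoyl-CoA reductase Decr1 lay 0.26 above wild type (SE 0.09, limma adjusted p = 0.135), and its dimmer probe set 0.45 above (limma adjusted p = 0.0525). The enoyl-CoA isomerases Eci1 and Eci2 lay 0.23 (SE 0.08) and 0.29 (SE 0.08) above, with limma adjusted p of 0.170 and 0.0877. The dienoyl-CoA isomerase Ech1 read 10.20, 10.30 and 10.28 in knockout and 10.07, 10.07 and 10.04 in wild type, a difference of 0.20 (SE 0.06, limma adjusted p = 0.119). The peroxisomal reductase Decr2 lay 0.12 above (SE 0.07, limma adjusted p = 0.369).

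The electron transfer flavoprotein passes electrons from the acyl-CoA dehydrogenases to the respiratory chain. Of its 3 genes 0 passed limma's threshold, with 1 higher at an unadjusted p under 0.05, against 15.2% of all genes. Etfb read 10.63, 10.63 and 10.58 in knockout and 10.35, 10.37 and 10.45 in wild type, a difference of 0.22 (SE 0.06, limma adjusted p = 0.0969). Etfa overlapped between genotypes and differed by -0.03 (SE 0.06), and the oxidoreductase Etfdh by 0.07 (SE 0.09). The mitochondrial thioesterase Acot9 differed by -0.03 (-0.18 to 0.11).

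The PPAR-responsive regulators measured here gave no call. Pdk4, the kinase that shuts down pyruvate dehydrogenase when fatty acids are burned, read between 3.53 and 3.87 on the 6 arrays, far under the median of all values, and differed by 0.05 (-0.17 to 0.26). Angptl4, a secreted inhibitor of lipoprotein lipase, read 7.44, 7.01 and 7.27 in knockout and 7.31, 7.02 and 7.12 in wild type, a difference of 0.09 (-0.18 to 0.36), with the lowest value of each genotype in its replicate 2.

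Mitochondrial and peroxisomal enzymes were compared by their median differences. For reference, 2.85% of all genes rose, 2.05% fell and 53.1% had a higher mean in knockout. Of the 17 mitochondrial genes 2 rose, 0 fell and 15 did not pass, 13 had a higher mean in knockout, and the median difference was 0.11 (range -0.20 to 0.55). Of the 5 peroxisomal genes 1 rose, 0 fell and 4 did not pass, 4 had a higher mean, and the median was 0.12 (range -0.29 to 0.43). The medians thus differed by -0.016 (mitochondrial minus peroxisomal). A related quantity, the distance on each array between the groups' median deviations from the gene means, had an SD of 0.034 between replicates of a genotype. The difference of medians depended on the probe sets used. Without those of the s and x types it was -0.10, with a peroxisomal median of 0.21. With only probe sets above the median level it was 0.042, of the opposite sign. Each compartment held both a gene that rose and a gene whose mean lay lower in knockout. In the peroxisome Ehhadh rose and Acaa1a had the lower mean. In mitochondria Hadh and Acadm rose, and Acadl, Cpt1a, Etfa and Hadha had lower means, none of them past the threshold. The 3 dual-located genes had a median of 0.20, and counting them as peroxisomal moved the difference of medians to -0.054.

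**Figure D2:**
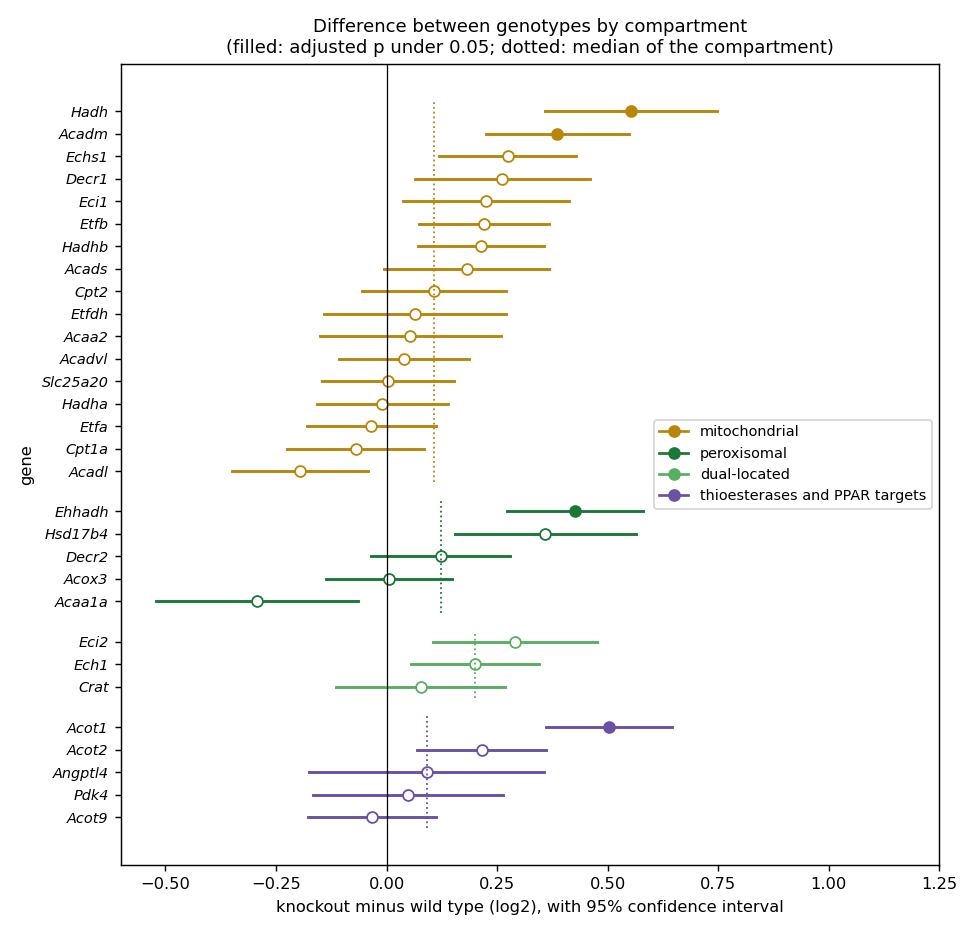
Difference between knockout and wild type of each gene (x axis, log2, with its 95% confidence interval) grouped by compartment along the y axis, with filled points for genes past the threshold and a dotted line at the median of each compartment. The medians of the mitochondrial (0.11) and peroxisomal (0.12) genes lie side by side, while the genes within each group range from below 0 to 0.55 and 0.43.

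The size of these medians depended on single arrays and on scaling. Leaving out knockout replicate 1 gave a mitochondrial median of 0.16 and a peroxisomal median of 0.16. Leaving out knockout replicate 2 gave 0.066 and 0.075. Quantile normalization of the deposited values gave 0.058 for the mitochondrial and 0.088 for the peroxisomal genes. Ehhadh had to be left out where only probe sets above the median level were kept, and the peroxisomal median was then 0.065.

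Markers of other cells moved with the genotype on the same arrays. For reference, 2.85% of all genes rose and 2.05% fell. At an unadjusted p under 0.05, 15.2% of all genes were higher and 8.15% lower. Of 13 measured dendritic cell markers 2 rose, 0 fell and 11 did not pass. The 2 were H2-DMb2, an MHC class II gene (0.97, SE 0.19), and the transcription factor gene Batf3 (0.53, SE 0.11). At an unadjusted p under 0.05, 8 of the 13 were higher and 0 lower. The mean log2 intensity of that list was 7.91 to 8.41 in knockout and 7.61 to 7.85 in wild type. For the 11 neutrophil markers it was 8.34 to 8.89 in knockout and 8.99 to 9.24 in wild type, with 0 past limma's threshold and, at an unadjusted p under 0.05, 8 lower and 1 higher. For the 10 fibroblast markers, 6 of which lie under the median level, it was 5.04 to 5.15 and 5.49 to 5.59. The collagen genes Col1a2 (-1.29, SE 0.11) and Col3a1 (-0.48, SE 0.08) and the proteoglycan gene Dcn (-1.10, SE 0.14) fell. At an unadjusted p under 0.05, 7 of the 10 fibroblast markers were lower and 0 higher. The 10 markers of mammary epithelial cells, the type of the tumour line, gave 5.70 to 5.75 and 5.67 to 5.74, with 0 past limma's threshold and, at an unadjusted p under 0.05, 1 higher and 1 lower. The second knockout array was the highest for the mitochondrial genes (median deviation from the gene means 0.13), the peroxisomal genes (0.16) and the dendritic cell markers (0.49), and the lowest for the neutrophil markers (-0.64). Knockout replicate 3 lay above replicate 1 for the mitochondrial genes (0.048 and -0.018), the peroxisomal genes (0.050 and -0.017) and the neutrophil markers (0.045 and -0.23). It lay below replicate 1 for the dendritic cell markers (-0.016 and 0.084). The part of these cells in the differences of the oxidation genes was not tested. Nnt, the mitochondrial transhydrogenase gene of which the C57BL/6J substrain carries a deletion, rose as well. It read 9.85, 9.29 and 9.88 in knockout and 8.37, 8.82 and 9.07 in wild type (limma adjusted p = 0.0392). The call held in 2 of 6 fits that each left out 1 array and in 6 of 9 other alternative fits. It was lost with trend and robust settings (limma adjusted p = 0.107) and with the floor at the 20th percentile (limma adjusted p = 0.182). With the replicate number as a block it was lost as well (limma adjusted p = 0.0630). Averaging its probe sets gave 0.57, and the call held there (limma adjusted p = 0.0412). The labels name no substrain, and the part of Nnt in the differences above was not tested.

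**Figure D3:**
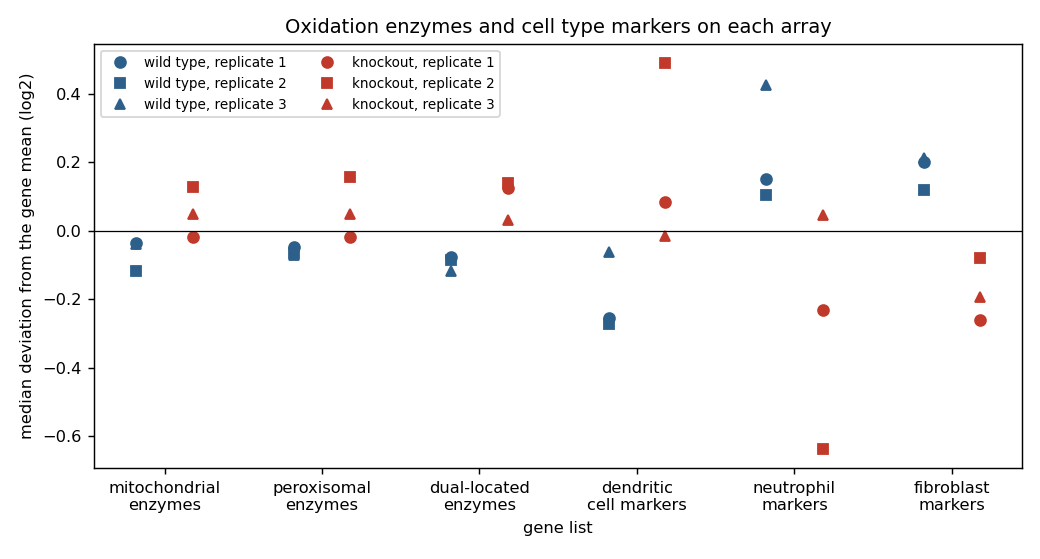
Median deviation from the gene mean (y axis, log2) of 3 groups of oxidation enzymes and 3 lists of cell type markers on each array, wild type in blue and knockout in red, with the shape giving the replicate number. Knockout replicate 2 is the highest array for the mitochondrial and peroxisomal enzymes and the dendritic cell markers and the lowest for the neutrophil markers. Knockout replicate 3 lies above replicate 1 for the mitochondrial and peroxisomal enzymes and the neutrophil markers, and below it for the dendritic cell markers.

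In the wider pathway, 6 of 104 further genes rose (5.77%), 0 fell and 98 did not pass, whereas 2.85% of all genes rose and 2.05% fell. The median of the 104 was 0.10, against 0.01 for all genes. Among 20 further genes listed under mitochondrial oxidation, most of them of branched-chain amino acid and short-chain breakdown, 3 rose: Hibch, Echdc1 and Ecsit. Hibch codes for a hydrolase of valine breakdown (0.65, SE 0.11) and Echdc1 for an enzyme that removes ethylmalonyl-CoA (0.37, SE 0.07). Ecsit codes for an assembly factor of respiratory complex I (0.32, SE 0.07). The list goes by role, and not all of its proteins are mitochondrial enzymes. The median of the 20 was 0.22, and in 13 of 20 all knockout arrays lay above wild type, against 20.7% of all genes. Among 16 other peroxisomal oxidation genes, Abcd2, a transporter of very-long-chain acyl-CoA, rose (0.41, SE 0.09), 15 did not pass, and the median was 0.20. Crot, the peroxisomal carnitine octanoyltransferase, rose by 0.36 (SE 0.08) as 1 of 9 carnitine and malonyl-CoA genes. Bdh1, which interconverts the ketone bodies, rose by 0.65 (SE 0.15) as 1 of 4 in its list. These 6 rises had limma adjusted p between 0.0235 and 0.0493. None of the further genes passed once the first or second array of either genotype was left out, in fits where 0.0495% to 0.423% of all genes rose. Without the third array of wild type 2 passed, without that of knockout 4, and after quantile normalization 2. With a gene's probe sets averaged, Crot differed by 0.14 (limma adjusted p = 0.192) and Abcd2 by 0.23 (limma adjusted p = 0.109), so that neither kept its call.

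Other branches of the pathway gave no call. At an unadjusted p under 0.05, 15.2% of all genes were higher and 8.15% lower. Of the 12 acyl-CoA synthetases and fatty acid transport proteins, which make acyl-CoA from fatty acids, 0 passed limma's threshold and 0 had an unadjusted p under 0.05, and their median was -0.02, with Acss1 at -0.28 (SE 0.13) having the smallest p. Of 12 peroxisome assembly genes 0 passed (2 higher at an unadjusted p under 0.05, median 0.07), with Pex10 at 0.35 (SE 0.09, limma adjusted p = 0.0657). Of 11 other thioesterases 0 passed (3 higher at an unadjusted p under 0.05, median 0.11), with Acot11 at 0.28 (SE 0.07, limma adjusted p = 0.0701). Of 10 relatives of Pdk4, Ucp2 and Angptl4 0 passed (2 higher at an unadjusted p under 0.05), with Pdk1 at 0.31 (SE 0.08, limma adjusted p = 0.0736). Among the 10 genes of PPAR receptors and coactivators 0 passed (3 higher and 1 lower at an unadjusted p under 0.05), with the coactivator Ppargc1a, a dim gene, at -0.32 (SE 0.09, limma adjusted p = 0.0709).

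**Figure D4:**
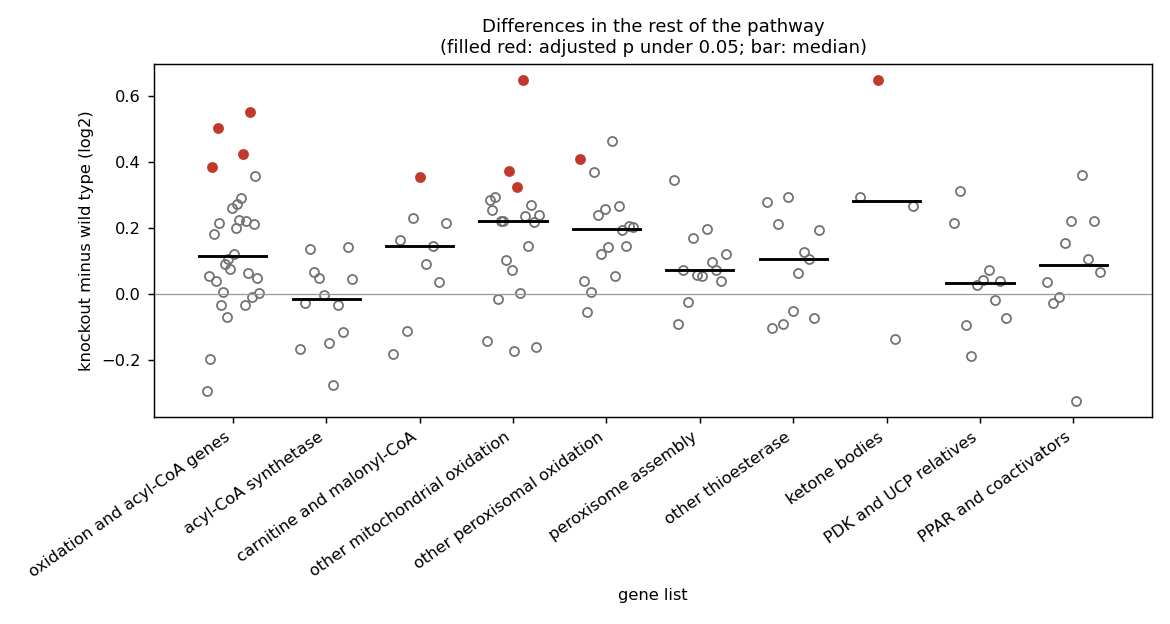
Difference between knockout and wild type (y axis, log2) of each gene of the oxidation and acyl-CoA list and of 9 further lists of the pathway, with genes past the threshold filled in red and the median of each list as a bar. The 10 called genes all lie above 0, and the medians run from -0.02 for the acyl-CoA synthetases to 0.28 for the 4 ketone body genes.

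PPAR targets outside oxidation were listed beside the 30 genes. Of 13 measured, 0 rose, Fabp4 fell and 12 did not pass, whereas 2.85% of all genes rose and 2.05% fell. The median of the 13 was -0.07. At an unadjusted p under 0.05, 1 was higher and 4 lower, against 15.2% and 8.15% of all genes. Fabp4, a relative of Fabp5 whose protein is abundant in fat cells, lay at -1.08 (SE 0.11, limma adjusted p = 0.00811). Of the genes without a call, Cidec, a dim gene, had the smallest p. It lay at 0.27 (SE 0.07, limma adjusted p = 0.0655), with every knockout array higher. Hilpda lay at -0.25 (SE 0.07, limma adjusted p = 0.0965). The lipid droplet coat gene Plin2 lay at -0.20 (SE 0.06, limma adjusted p = 0.112), the fatty acid receptor gene Cd36 at -0.13 (SE 0.07) and the lipase gene Lpl at 0.02 (SE 0.06).

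The 4 genes that rose lay close to the threshold, with limma adjusted p between 0.0158 and 0.0273. Over 6 fits that each left out 1 array, Acot1 kept its call in 4, Hadh in 3, and Ehhadh and Acadm in 2, with differences of 0.48 to 0.52, 0.47 to 0.60, 0.40 to 0.46 and 0.34 to 0.42. With trend and robust settings 10 of the 30 genes passed as higher and Acadl as lower, against 6.51% and 2.76% of all genes, and with only probe sets above the median level 8 of 28 passed, all higher, against 9.24% of genes tested higher. With values under the 20th percentile raised to it, Acot1 alone of the 30 passed, beside 0.132% of all genes higher and 0.0385% lower.

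**Figure D5:**
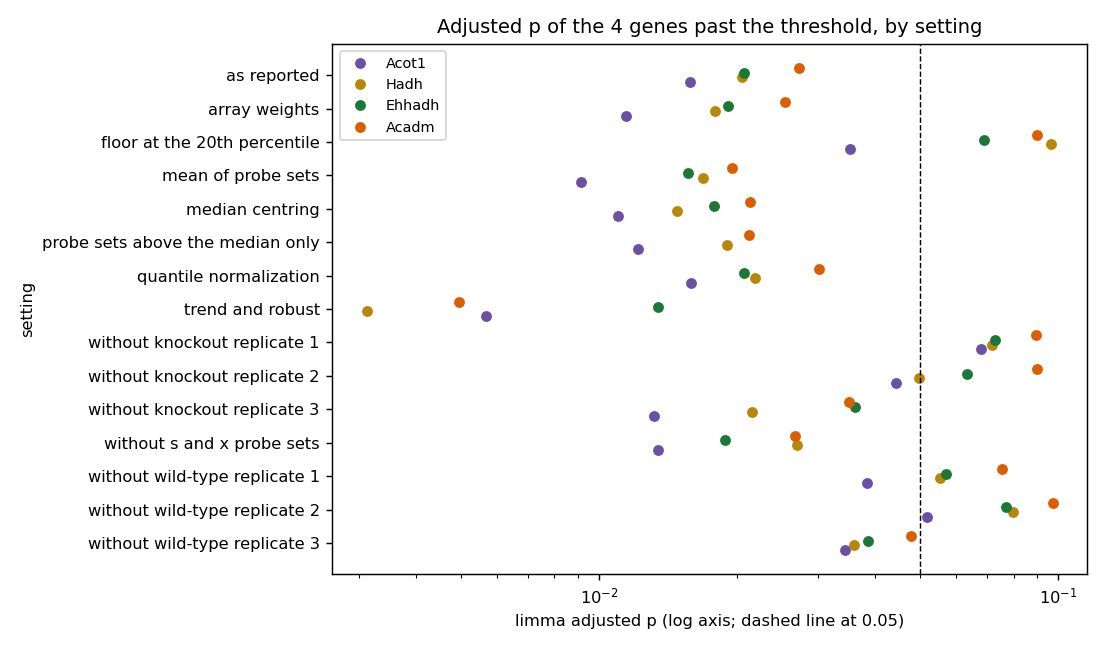
Limma adjusted p (x axis, log scale, dashed line at 0.05) of Acot1, Hadh, Ehhadh and Acadm under each setting but the replicate block (y axis). All 4 points lie left of the line as reported, and all 4 lie right of it without the first knockout array and without the second wild-type array.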

How the data were processed

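Total RNA of 6 cultures was measured on Affymetrix 3' expression arrays. The deposited table holds log2 intensities, 1 per probe set and array. Tools are listed in the submitters' processing notes, with no order: GCRMA 2.30.0, RMA, affy 1.36.1 and limma 3.14.4. Whether RMA or GCRMA gave the values was not settled; the methods treat dim signals differently. No genome build is tied to these values.

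The 64 control probe sets were left out, and 45037 were fitted as knockout minus wild type (lmFit and eBayes of limma 3.58.1, under R 4.3.3), with Benjamini-Hochberg adjustment over all of them. Adjusted p-values and SEs are limma's, moderated with 5.04 prior degrees of freedom. The fit was tested on simulated data. Symbols came from the platform annotation, updated through RefSeq gene identifiers, and the probe set with the highest mean stood for its gene. Probe sets of several genes were tested but not named for 1 gene. Promoter windows are RefSeq's (GRCm38.p6), cut to 250 bases before the start; those of 5 measured genes were not used here. Genes named are Fabp5, Nnt and all 30 measured genes of the list, and from other lists those past the threshold and the 1 with the smallest p; markers and PPAR targets given without a call were picked with values in view. The members and lists were chosen with earlier results of these data known. A planned comparison of protein sequences was not run. Alternatives are in the closing section. The replicate numbers were not taken as pairs: same-numbered arrays deviated from their group means with r of -0.06, -0.04 and -0.13. A permutation of 3 against 3 arrays gives no two-sided p under 0.1. Figures were drawn with matplotlib 3.10.9.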

Additional observations from a re-analysis of the deposited data

How the results depend on the processing

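Probe sets called numbered 1691 as reported, 71 with a floor at the 20th percentile, 2692 above the median level only, 92 with the replicate block, 3126 with trend and robust settings, 3775 at an adjusted p under 0.1 and 40 to 1360 when each array was left out in turn. Of the oxidation and acyl-CoA genes 4 were called as reported, 1 with the floor, 9 when a gene's probe sets were averaged, 8 above the median level only, 0 with the replicate block, 11 with trend and robust settings, 9 at an adjusted p under 0.1 and 0 to 4 in the leave-one-out fits. Further pathway genes called numbered 6 as reported, then 0, 12, 14, 0, 14 and 19 in the same order of settings, 2 after quantile normalization and 0 to 4 in the leave-one-out fits. PPAR targets called numbered 1 as reported, 0 with the floor, 2 with averaged probe sets, 2 above the median level only, 2 after quantile normalization, 4 with trend and robust settings and 3 at an adjusted p under 0.1. The labels do not say that a replicate number marks a shared animal or day, and same-numbered arrays did not deviate together; with the block the adjusted p was 0.0537 for Acot1, 0.0580 for Hadh, 0.0582 for Ehhadh and 0.0735 for Acadm. Averaging probe sets gives no number of probe sets. Of all genes, 4.18% were called higher and 2.65% lower with averaged probe sets, and 7.04% and 3.63% at an adjusted p under 0.1. With the replicate block these shares were 0.121% and 0.126%. The cause of these shifts was not tested.

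The mitochondrial minus peroxisomal difference of medians (-0.016) was 0.042 above the median level only, and equally without Ehhadh and Pdk4 (chosen after seeing the data), -0.10 without probe sets of the s and x types and -0.054 with dual-located genes counted as peroxisomal. The peroxisomal median was 0.21 without those probe sets, and the median of the 30 genes lay between 0.11 and 0.16 in the leave-one-out fits.

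Genes near 0 changed sign. Acox3 was -0.0036 with array weights, -0.027 after quantile normalization and -0.017 to 0.028 in the leave-one-out fits. With averaged probe sets Slc25a20 was -0.023 and Angptl4 -0.020. Angptl4 was -0.13 without s and x probe sets, and Hadha 0.0017 after median centring. The leave-one-out fits spanned -0.026 to 0.034 for Slc25a20, -0.0099 to 0.21 for Angptl4, -0.031 to 0.030 for Hadha, -0.010 to 0.14 for Crat, -0.017 to 0.14 for Acaa2, -0.015 to 0.12 for Etfdh and -0.044 to 0.13 for Pdk4. Hadh, Acadm, Ehhadh and Acot1 kept their direction in every fit that held them.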
